A study of Mus musculus with 6 samples.

Results

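The solute carriers expressed in Hepa1-6 cells, an established mouse hepatoma line, were taken as every gene with a symbol of Slc followed by a digit and a mean RPKM over 1 across the 6 libraries of the series. RPKM is a read count scaled by exon length and library depth, so it can be compared between genes. The mitochondrial Slc25 and fatty acid Slc27 families and 8 further genes (Slc2a1, Slc2a2, Slc2a3, Slc16a1, Slc16a3, Slc37a4, Slc7a11 and Slc40a1) were set aside. Of 25078 genes, 379 carried such a symbol, 171 of these had a mean RPKM over 1, and 130 remained as members after 41 expressed genes had been set aside. The members were thus selected on their measured RPKM, and the levels are given as a description, with no test of them. The members just above the threshold were Slc38a9 with a mean RPKM of 1.03, Slc12a2 with 1.03 and Slc5a6 with 1.09, and those just below it were Slc26a6 with 0.862, Slc35f1 with 0.842 and Slc7a9 with 0.792. The label holds for 125 members, since 5 members have names derived from a carrier and are not themselves carriers.

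RNA-seq after depletion of ribosomal RNA compared Hepa1-6 cells in which midnolin was suppressed with control cells. The wt group was 1 library of cells without treatment, the scr group was 2 libraries of cells with a scramble vector (25-2 and 50-1), and the knockdown group was 3 libraries of cells with a midnolin shRNA vector (25-3, 50-2 and 50-5). Both vectors were delivered by lentivirus, and lines were grown from single cells isolated by limiting dilution, so each knockdown line is 1 clone and a difference between groups cannot be told apart from a difference between clones. The study describes sequencing of 2 knockdown clones and a scr control clone, so libraries of a group may share a clone and are then not independent. The labels name neither the clones nor the meaning of the numbers 25 and 50, and they leave unsaid if scr 25-2 and scr 50-1 are separate clones, so p-values measure only the spread between these libraries. The knockdown was compared with scr (n = 3 against 2) by the edgeR quasi-likelihood test on the deposited read counts. A gene was called at a Benjamini-Hochberg adjusted p (FDR) under 0.05 with a fold change of at least 1.5, and wt served as a level only.

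Solute carriers are membrane proteins that move nutrients, ions, metals, vitamins and metabolites across the plasma membrane and the membranes of organelles, by facilitated diffusion, by exchange, or by coupling to sodium or proton gradients. Hepatocytes depend on them to clear amino acids, bile acids and organic ions from portal blood. Tumor cells draw on many of the same proteins for amino acids, trace metals and the sugar nucleotides used in glycosylation.

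Between 25586301 and 33119710 reads were counted per library, and 125 of the 130 members had at least 10 counts in every library. Midn, the targeted gene, had an RPKM of 60.5 in wt, 59.6 and 50.8 in scr, and 20.3, 21.8 and 22.1 in knockdown, a log2 fold change of -1.38 (SE 0.133, FDR 0.00777, edgeR). All knockdown libraries lay below both scr libraries. Of 9 hepatocyte and hepatoma markers, Serpina1a had 0 counts in all libraries, and Apoa1, at 0.0306 to 1.59 RPKM, was not tested. Of the 7 tested, edgeR called 0 (1 higher and 3 lower at an unadjusted p under 0.05, and 1 higher and 2 lower by DESeq2). The summed RPKM of the 9 was 5250 in wt, 2928 and 4009 in scr, and 1009, 491 and 216 in knockdown. The markers did not move together, since the log2 fold changes of the 7 ran from -4.08 (FDR 0.0712) for albumin, with an RPKM of 2424 in wt, 1877 and 2804 in scr, and 336, 62.7 and 20.9 in knockdown, to 3.93 (FDR 0.0822). Without knockdown 25-3 albumin was called, at -5.82 (FDR 0.0411). Of the fibroblast markers Dcn was tested and not called, while Col1a1, Col1a2, Col3a1 and Pdgfrb were near 0. The macrophage and leukocyte markers summed to 4.06 in wt, 4.15 and 4.70 in scr, and 8.58 to 13.6 in knockdown. Of these Cd68 and Csf1r were tested and not called by edgeR (FDR 0.0989 and 0.192), while DESeq2 called 1 higher. Ptprc was at most 0.160 RPKM, and Adgre1 had 0 counts in every knockdown library. Of 3 cholangiocyte markers tested, Krt7 was called lower, and no endothelial or stellate marker reached the level for a test. The part of these markers in the results was not tested.

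Several carriers typical of mature hepatocytes had few or no reads. Slc10a1, the sodium-coupled bile acid importer, Slc22a7, an organic anion carrier, and Slc13a5, the citrate importer, had 0 counts in all 6 libraries. Slc38a3, a glutamine transporter of periportal liver, ranged from 0.0887 to 0.894 RPKM and stayed below the threshold. Among the carriers that were expressed, levels spanned 1.03 to 316 RPKM with a median of 8.78, and 30 members had a mean over 20 RPKM and 5 a mean over 50 RPKM. The 5 were Slc38a2, Slc39a4, Slc39a7, Slc3a2 and Slc6a6, which carry neutral amino acids, zinc, zinc, the shared chain of amino acid exchangers and taurine.

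The edgeR test called 27 of the 130 members, 16 higher and 11 lower in knockdown than in scr, which is 20.8% of the members where 10.6% of all 11577 genes tested were called. For higher calls the shares were 12.3% of the members against 5.40% of all genes, and for lower calls 8.46% against 5.23%. All 3 knockdown libraries lay above both scr libraries in 33 members and below both in 35, where the shares over all genes tested were 25.7% and 24.5%. In the other 62 members the groups overlapped. The median log2 fold change was -0.12 over the members and -0.01 over all genes. Of the members, 118 had a mean RPKM over 1 in each of wt, scr and knockdown, and of these 9 were called higher and 10 lower. The other 12 members passed the threshold through a part of the groups, and 7 of them were called higher, among them Slc18b1, Slc38a4, Slc6a13, Slc38a1, Slc37a1 and Slc45a4, and 1 lower, Slc12a2. The rest, not called, included Slc17a1, Slc38a9 and Slc5a6. Such a member had to differ between groups to enter, so its call is not independent of the way the members were chosen. Fewer cells expressing a carrier and less RNA per cell cannot be told apart in these bulk libraries.

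**Figure D1:**
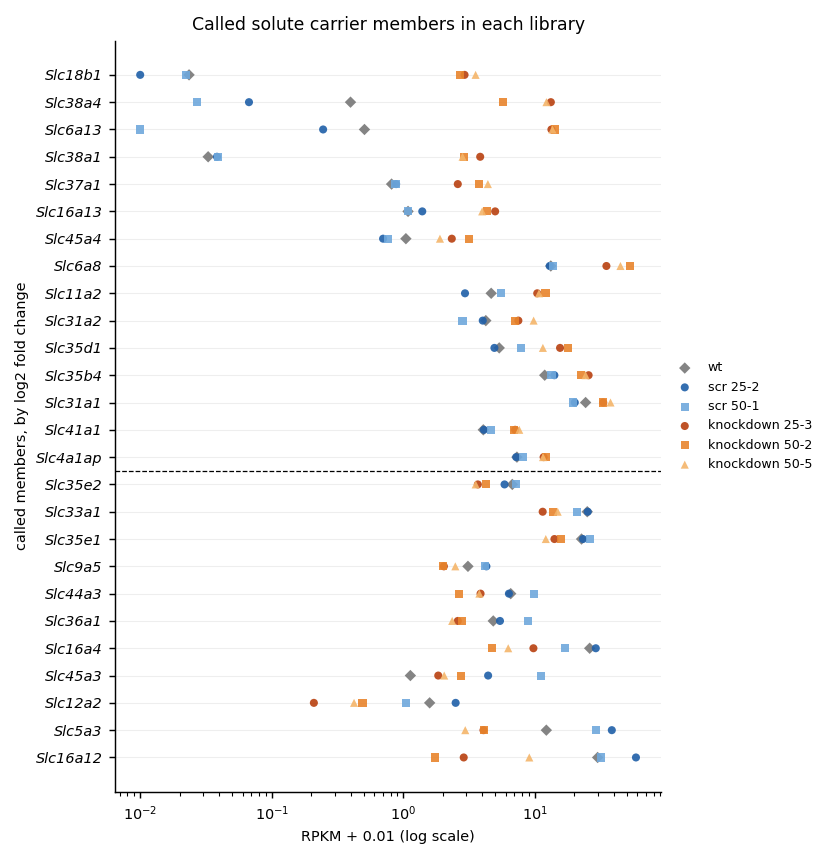
RPKM of 26 of the 27 called solute carriers in each library (logarithmic horizontal axis, 0.01 RPKM added), one row per gene ordered by log2 fold change, with points for wt, scr and knockdown libraries. Slc18b1, Slc38a4, Slc6a13 and Slc38a1 stand at or below 0.497 RPKM in scr and wt and between 2.69 and 14.3 RPKM in knockdown.

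The calls rested on few libraries. Leaving out knockdown 25-3, 50-2 or 50-5 left 6, 4 and 7 of the 27 members called. Each scr library was left out in turn as well, but such a fit has 1 scr library. Its spread then comes from the knockdown libraries alone, so a call or FDR from it does not weigh the difference between the scr libraries. Beside the 4 members called in every fit, Slc6a8 and Slc37a1 kept the call without knockdown 25-3, and Slc6a8, Slc16a12 and Slc45a4 kept it without knockdown 50-5, while every other called member lost it without each of the 3. The members called in each of these 5 fits and in all 14 alternatives with a fit were Slc18b1, Slc38a1, Slc38a4 and Slc5a3. The first 3 of these entered the members through their level in knockdown, so for them this gives no independent support, and Slc5a3 was over 1 RPKM in each group. None of the 27 changed direction under any alternative. The members varied between the scr libraries as well, which differed more than 2-fold in 31 members (23.8%), against 12.8% of all genes tested. On the log2 scale with 0.1 RPKM added, the wt library was nearer to scr than to knockdown in 26 of the 27 called members. Over all called genes it was nearer to knockdown in 17.8%. The exception was Slc45a3.

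The amino acid carriers included both the most abundant member and a pair that was nearly silent in scr. Of 20 members, 2 were called higher and 1 lower in knockdown by edgeR, against 5.40% and 5.23% of all genes. These 3 were among the 16 outside the heterodimeric exchangers, whose median log2 fold change was -0.51 and of which DESeq2 called 2 higher and 8 lower, while 2 were higher and 7 lower at an unadjusted p under 0.05. Slc38a2, the sodium-coupled neutral amino acid transporter known as SNAT2, had an RPKM of 175 in wt, 320 and 490 in scr, and 384, 240 and 287 in knockdown. The groups overlapped, and this gene alone accounted for 9.56% to 19.4% of the summed RPKM of all members, depending on the library. Slc1a5, the glutamine carrier ASCT2, was next in mean level among the amino acid carriers outside the exchangers, at 38.3 in wt, 25.9 and 54.6 in scr, and 41.6, 47.0 and 34.9 in knockdown, all 3 of the latter between the scr libraries.

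Slc38a4 and Slc38a1 lie on either side of Slc38a2 on chromosome 15 and encode SNAT4 and SNAT1, which carry neutral amino acids with sodium. Slc38a4 (chr15:96994823-97055956, minus strand) had an RPKM of 0.387 in wt, 0.0571 and 0.0169 in scr, and 13.2, 5.67 and 12.2 in knockdown. This rested on 42 reads in wt, 7 and 2 in scr, and 1739, 763 and 1687 in knockdown. The 3 knockdown libraries were all far above the controls, with a log2 fold change of 8.07 (SE 0.700, FDR 0.00618, edgeR), and the pooled ratio was 278 with a 95% counting interval of 147 to 608. That interval covers counting error only. Slc38a1 (chr15:96571418-96642913, minus strand) had an RPKM of 0.0229 in wt, 0.0283 and 0.0293 in scr, and 3.83, 2.90 and 2.81 in knockdown. The scr libraries held 7 counts each and the knockdown libraries 781 to 1016, a log2 fold change of 6.75 (SE 0.309, FDR 0.00212, edgeR) and a ratio of 110 with a counting interval of 65.8 to 202. With each library left out, the log2 fold change ranged from 7.47 to 9.19 for Slc38a4 and from 6.59 to 6.83 for Slc38a1.

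Genes around Slc38a2 were compared to place this pair in its neighborhood, in a window chosen after the values were seen. Within 500 kb on each side, 7 of 10 genes were tested, 4 were called higher and 0 lower, and their median log2 fold change was 0.73. Beside Slc38a4 and Slc38a1 these were Gm4371, with an RPKM of 0.0844 and 0.0654 in scr and of 3.97, 5.13 and 6.25 in knockdown, and Arid2, a chromatin remodeling subunit, with 30.5 and 36.4 in scr and 57.2, 54.1 and 56.4 in knockdown. The counts include the carriers that prompted the window. Slc38a2 itself, in the middle of it, overlapped between the groups.

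**Figure D2:**
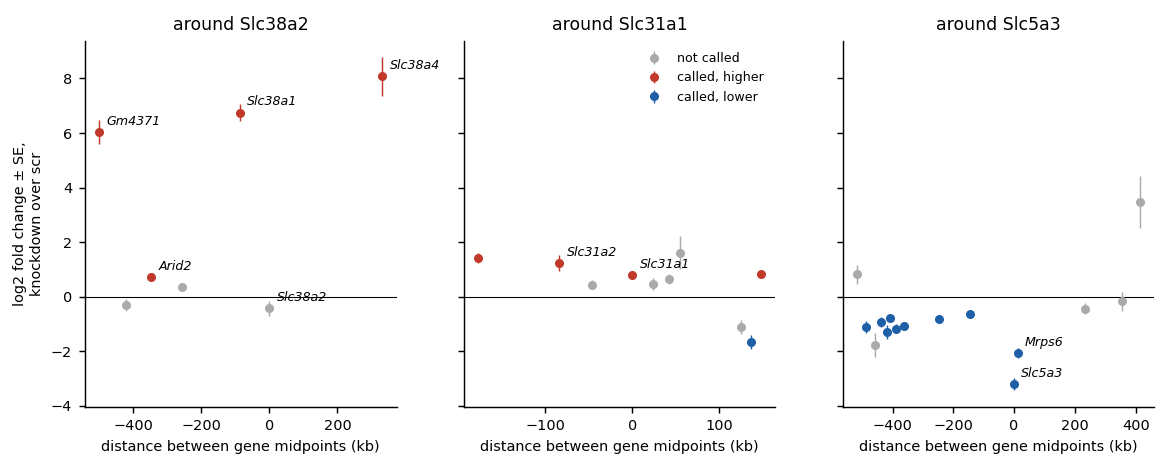
Log2 fold change of knockdown against scr (vertical axis, bars ± SE) for the tested genes within 500 kb of Slc38a2, Slc31a1 and Slc5a3, by the distance between gene midpoints in kb (horizontal axis), with called genes in color. Around Slc38a2 the points of Slc38a1, Slc38a4 and Gm4371 lie above 6, around Slc31a1 the 4 higher calls lie between 0.79 and 1.42, and around Slc5a3 10 of 15 genes are called lower.

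The sequences directly before the annotated starts of the genes that were nearly silent in scr are shown beside that of Slc38a2, since the starts differ in their density of CG dinucleotides, which are in capitals. Each is 250 bases of RefSeq on GRCm38.p6, 5′ to 3′ on the strand of the gene, from chr15:97055957-97056206 (minus) for Slc38a4, chr6:121300038-121300287 (plus) for Slc6a13, chr10:23796736-23796985 (plus) for Slc18b1 and chr15:96699729-96699978 (minus) for Slc38a2.
Slc38a4: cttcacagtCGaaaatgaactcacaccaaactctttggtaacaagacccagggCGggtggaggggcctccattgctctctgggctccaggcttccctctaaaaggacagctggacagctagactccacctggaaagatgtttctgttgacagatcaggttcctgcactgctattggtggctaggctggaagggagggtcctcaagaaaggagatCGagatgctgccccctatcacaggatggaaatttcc
Slc6a13: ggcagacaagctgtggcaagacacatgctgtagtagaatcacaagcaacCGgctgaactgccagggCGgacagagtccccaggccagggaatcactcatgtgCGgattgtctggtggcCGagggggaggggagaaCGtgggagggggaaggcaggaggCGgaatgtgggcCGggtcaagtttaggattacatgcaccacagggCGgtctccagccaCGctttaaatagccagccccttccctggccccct
Slc18b1: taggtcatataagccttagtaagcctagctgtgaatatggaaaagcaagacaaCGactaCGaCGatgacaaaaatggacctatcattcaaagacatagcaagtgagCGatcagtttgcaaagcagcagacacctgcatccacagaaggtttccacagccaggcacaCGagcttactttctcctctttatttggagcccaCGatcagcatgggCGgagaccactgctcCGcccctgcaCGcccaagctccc
Slc38a2: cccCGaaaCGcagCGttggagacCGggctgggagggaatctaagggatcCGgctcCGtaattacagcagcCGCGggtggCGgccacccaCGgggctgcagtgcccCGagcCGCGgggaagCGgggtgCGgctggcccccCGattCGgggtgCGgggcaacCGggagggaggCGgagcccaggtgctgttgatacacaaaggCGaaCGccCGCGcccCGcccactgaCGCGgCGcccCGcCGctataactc
The window of Slc38a4 held 3 CG dinucleotides, those of Slc6a13 and Slc18b1 held 9 each, and that of Slc38a2 held 30. The median was 16 over the 8587 tested genes with a window (quartiles 10 and 23), 15 over 90 members, 13 over the 9 members called higher and 15 over the 9 called lower. The window of Slc38a1 was not analysed here.

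Of the 16 amino acid carriers outside the exchangers, the knockdown libraries lay below both scr libraries in 7, above both in 2 and overlapped them in 7, where 24.5% of all genes lay below and 25.7% above. Slc36a1, the proton-coupled carrier PAT1 of the lysosome and the plasma membrane, was the one called lower, with an RPKM of 4.82 in wt, 5.42 and 8.88 in scr, and 2.59, 2.78 and 2.34 in knockdown (log2 fold change -1.49, SE 0.237, FDR 0.0206, edgeR). The knockdown libraries lay close together and below all controls, but the call was lost without any 1 of them (FDR 0.0800 to 0.0913). Slc1a2, the glutamate transporter GLT-1, had 5.71 in wt, 7.21 and 40.0 in scr, and 3.08, 0.795 and 1.88 in knockdown. Its log2 fold change was -3.63 (SE 0.842) and its FDR of 0.0504 missed the threshold. The scr libraries themselves stood far apart, and the log2 fold change was -1.92 without scr 50-1 and -4.38 without scr 25-2. Slc1a4, the alanine, serine and cysteine carrier ASCT1, had 25.1 in wt, 24.2 and 54.6 in scr, and 14.7, 17.6 and 10.2 in knockdown (log2 fold change -1.49, FDR 0.0621). Its log2 fold change was -0.79 without scr 50-1 and -1.95 without scr 25-2.

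Scr 50-1 was the high library for many of these carriers. It exceeded scr 25-2 in 15 of the 20 amino acid members, where it did so in 51.4% of all genes, with a median log2 difference of 0.42, and in 6 of them the scr libraries differed more than 2-fold. Slc6a9, the glycine transporter GlyT1, had an RPKM of 2.87 in wt, 2.06 and 15.5 in scr, and 3.03, 1.62 and 0.977 in knockdown. Its log2 fold change of -2.23 (FDR 0.144) was -0.15 without scr 50-1 and -3.04 without scr 25-2. Slc16a10, the aromatic amino acid carrier TAT1, had 8.57 in wt, 5.02 and 27.8 in scr, and 5.45, 4.74 and 6.85 in knockdown. For Slc16a10 the log2 fold change was -1.54 (FDR 0.171) with both scr libraries and 0.17 without scr 50-1. Slc36a4, the PAT4 carrier of proline and tryptophan, followed the same order with 11.04 and 23.4 in scr and 8.32, 6.18 and 7.61 in knockdown.

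**Figure D3:**
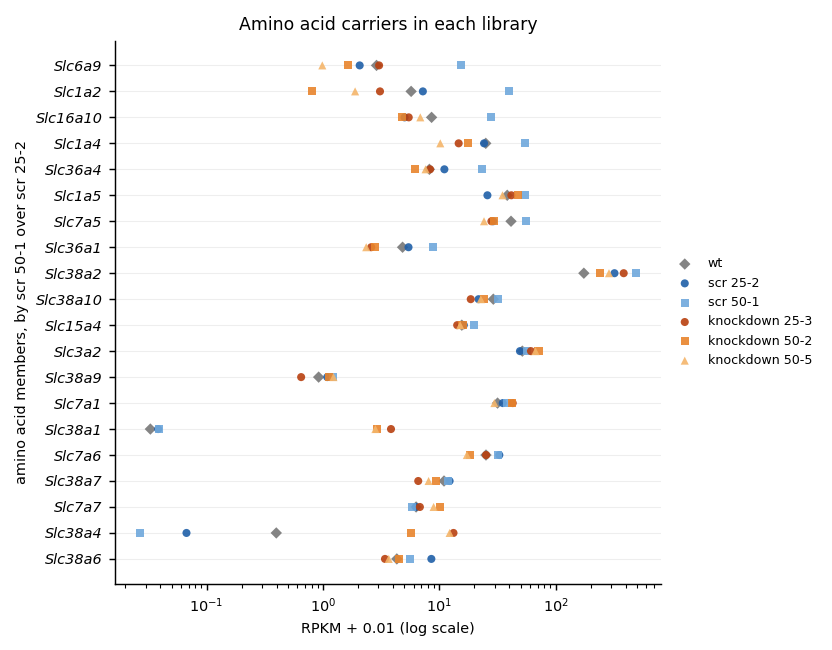
RPKM of the amino acid carriers in each of the 6 libraries (logarithmic horizontal axis, 0.01 RPKM added), one row per gene ordered by the ratio of scr 50-1 to scr 25-2. Scr 50-1 lies above scr 25-2 for 15 of the 20 genes, and Slc38a1 and Slc38a4 are near the left end of the axis in scr.

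The heterodimeric exchangers pair a light chain with the heavy chain Slc3a2 (4F2hc), and edgeR called none of their 4 members, while DESeq2 called 1 lower and 1 was lower at an unadjusted p under 0.05. Slc3a2 had an RPKM of 51.7 in wt, 49.3 and 56.5 in scr, and 61.3, 71.1 and 67.0 in knockdown. All 3 knockdown libraries were above the controls, by a log2 fold change of 0.32 (SE 0.135, FDR 0.173). Its light chain partner Slc7a5 (LAT1), the exchanger of large neutral amino acids, had 41.3 in wt, 29.0 and 55.4 in scr, and 28.0, 29.4 and 24.2 in knockdown (log2 fold change -0.64, FDR 0.176). This value rested on scr 50-1, as it was -0.11 without that library and -1.02 without scr 25-2. The light chain Slc7a6, which exchanges cationic for neutral amino acids, had 25.2 in wt, 32.8 and 31.9 in scr, and 25.2, 18.5 and 17.2 in knockdown (log2 fold change -0.68, FDR 0.0741).

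Genes that respond to amino acid supply were read beside the carriers. In a list of ATF4 targets and amino acid response genes, edgeR called 0 of 17 higher and 2 lower, a share near the 10.6% of all genes. DESeq2 gave the same counts, 0 were higher and 3 lower at an unadjusted p under 0.05, and the median log2 fold change was -0.19. Psat1, an enzyme of serine synthesis, had 190 RPKM in wt, 306 and 258 in scr, and 148, 97.6 and 93.9 in knockdown (log2 fold change -1.33, FDR 0.0271). Ddit4, an inhibitor of mTORC1, had 29.3 in wt, 45.5 and 42.7 in scr, and 19.8, 20.04 and 12.1 in knockdown (log2 fold change -1.36, FDR 0.0265). In a list of lysosomal amino acid sensing genes, edgeR called 1 of 16 higher and 1 lower, a share near the 10.6% of all genes, with a median of -0.06. DESeq2 called 2 higher and 1 lower, and 2 in each direction had an unadjusted p under 0.05. Castor2, a homologue of the cytosolic arginine sensor, had 1.75 in wt, 1.93 and 2.72 in scr, and 5.76, 6.50 and 8.81 in knockdown (log2 fold change 1.59, FDR 0.0252). Rptor, the scaffold subunit of mTORC1, had 12.1 in wt, 14.2 and 14.5 in scr, and 8.90, 9.57 and 9.33 in knockdown (log2 fold change -0.64, FDR 0.0273). The knockdown libraries lay outside the scr range in each of these 4 genes, and each call was lost without knockdown 50-2 (FDR 0.117, 0.0904, 0.0920 and 0.123, in this order). Without knockdown 25-3 those of Ddit4, Castor2 and Rptor were lost (FDR 0.0841, 0.0682 and 0.109), and without knockdown 50-5 those of Psat1, Castor2 and Rptor (FDR 0.0882, 0.0664 and 0.0876). The letters TGATGNAA of the amino acid response element occurred, on either strand, in 3.02% of 17767 such windows, in 4 of 90 member windows and in 0 of 18 windows of called members.

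Among the carriers of amines, creatine, taurine and choline, 3 of 7 were called higher and 1 lower, against 5.40% and 5.23% of all genes. Of the higher calls, Slc18b1 and Slc6a13 entered the members through their level in knockdown. Slc18b1, the vesicular polyamine transporter, lies at chr10:23796986-23827968 on the plus strand. It had 1 count in wt, 0 and 1 in scr, and 261, 247 and 332 in knockdown, or 0.0135, 0 and 0.0124 RPKM against 2.91, 2.69 and 3.54. The ratio of knockdown to scr was 501 with a 95% counting interval of 89.9 to 19782.3, and the test gave an FDR of 0.00549. The fitted log2 fold change of 8.65 (SE 0.649) depends on the small value added to a count of 0, and it was 7.79 without scr 25-2 and 11.09 without scr 50-1. Slc6a13, the GABA and taurine transporter GAT2 of hepatocytes and kidney, lies at chr6:121300288-121337721 on the plus strand. Its RPKM was 0.497 in wt, 0.236 and 0 in scr, and 13.4, 14.3 and 13.6 in knockdown. The knockdown libraries varied little, and the ratio to scr was 115 with an interval of 69.5 to 205. The log2 fold change was 6.81 (SE 0.929, FDR 0.0150), which became 5.84 without scr 50-1 and 12.86 without scr 25-2, where the 1 scr library left had 0 reads of the gene, and the call was lost when any 1 knockdown library was left out.

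Creatine carriers moved in both directions. Slc6a8, the creatine importer, lies at chrX:73673133-73682500, was expressed in all libraries and had an RPKM of 13.2 in wt, 12.96 and 13.8 in scr, and 35.01, 53.3 and 44.8 in knockdown. Its mean rose from 13.4 ± 0.572 in scr (SD, n = 2) to 44.4 ± 9.15 in knockdown (SD, n = 3), a log2 fold change of 1.72 (SE 0.210, FDR 0.0117, edgeR), and without knockdown 50-2 it was 1.58 with an FDR of 0.0509. Slc16a12, a creatine carrier of the monocarboxylate transporter family, had 30.0 in wt, 58.7 and 32.0 in scr, and 2.87, 1.72 and 9.07 in knockdown. Its log2 fold change was -3.32 (SE 0.734, FDR 0.0457), and it was the member with the widest range among the knockdown libraries, 2.33 on the log2 scale with 0.1 RPKM added. Without knockdown 50-5 the log2 fold change was -4.32 (FDR 0.0333), and without scr 25-2 it was -2.81 (FDR 0.0646). The call was also lost without knockdown 25-3 (FDR 0.148) and without knockdown 50-2 (FDR 0.117). Slc44a3, a choline transporter-like protein, had 6.55 in wt, 6.34 and 9.83 in scr, and 3.86, 2.65 and 3.78 in knockdown (log2 fold change -1.25, FDR 0.0479), with the call lost without scr 50-1. Slc6a6, the taurine transporter and the most abundant of the class, had 42.2 in wt, 69.3 and 49.1 in scr, and 67.5, 71.9 and 42.9 in knockdown, so that the groups overlapped.

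In the monocarboxylate transporter family SLC16, the 2 most abundant of the 5 members assigned to carboxylates fell, and Slc16a13 rose at a low level. Slc16a4, a member without an established substrate, had 26.1 in wt, 29.1 and 16.9 in scr, and 9.75, 4.74 and 6.27 in knockdown (log2 fold change -1.75, SE 0.371, FDR 0.0414). Slc16a13 had 1.08 in wt, 1.38 and 1.08 in scr, and 4.98, 4.35 and 3.97 in knockdown (log2 fold change 1.83, SE 0.252, FDR 0.0152). In Slc16a12, Slc16a4 and Slc16a13 the knockdown libraries lay outside the scr range. The summed RPKM of the 5 members was 61.2 in wt, 93.2 and 52.2 in scr, and 22.1, 15.7 and 26.9 in knockdown. The call of Slc16a4 was lost without knockdown 25-3, 50-2 or 50-5 (FDR 0.0676, 0.130 and 0.127), and its log2 fold change was -1.29 without scr 25-2. That of Slc16a13 was also lost without knockdown 25-3, 50-2 or 50-5 (FDR 0.0726, 0.0808 and 0.0524).

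Carriers of iron, copper and magnesium had 4 of 5 members called higher in knockdown and 0 lower by edgeR (0 lower also by DESeq2 and at an unadjusted p under 0.05), against 5.40% and 5.23% of all genes. Slc31a1, the high-affinity copper importer CTR1 at chr4:62360701-62391769, had 24.3 RPKM in wt, 20.1 and 19.7 in scr, and 33.1, 33.2 and 37.6 in knockdown. The mean was 19.9 ± 0.330 in scr (SD, n = 2) and 34.6 ± 2.57 in knockdown (SD, n = 3), a log2 fold change of 0.79 (SE 0.132, FDR 0.0234). Slc31a2 (chr4:62286429-62298412), the related copper transporter of endosomes and lysosomes, had 4.23 in wt, 4.01 and 2.81 in scr, and 7.49, 7.05 and 9.78 in knockdown (log2 fold change 1.24, SE 0.276, FDR 0.0465, and FDR 0.0825 without scr 50-1). Slc11a2, the ferrous iron importer DMT1, had 4.65 in wt, 2.94 and 5.49 in scr, and 10.4, 12.04 and 10.8 in knockdown (log2 fold change 1.38, SE 0.281, FDR 0.0373). Slc41a1, a magnesium carrier, had 4.05 in wt, 4.09 and 4.60 in scr, and 7.08, 6.91 and 7.61 in knockdown (log2 fold change 0.72, SE 0.144, FDR 0.0366, and FDR 0.0530 without scr 25-2). In these 4 genes every knockdown library exceeded wt and both scr libraries, whereas Slc41a2, with 10.0 and 6.19 in scr and 7.30, 7.88 and 12.4 in knockdown, overlapped. The calls of all 4 were lost without any 1 knockdown library, 25-3, 50-2 or 50-5.

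The copper transporters Slc31a2 and Slc31a1 are neighbors on chromosome 4, and the bases before their starts are shown because the pair moved together. These are chr4:62286179-62286428 for Slc31a2 and chr4:62360451-62360700 for Slc31a1, both on the plus strand, with CG in capitals.
Slc31a2: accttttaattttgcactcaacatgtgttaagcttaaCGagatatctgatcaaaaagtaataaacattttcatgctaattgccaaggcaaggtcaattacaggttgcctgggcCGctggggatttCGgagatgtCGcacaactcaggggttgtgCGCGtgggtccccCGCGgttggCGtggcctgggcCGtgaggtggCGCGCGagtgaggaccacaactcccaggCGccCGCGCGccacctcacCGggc
Slc31a1: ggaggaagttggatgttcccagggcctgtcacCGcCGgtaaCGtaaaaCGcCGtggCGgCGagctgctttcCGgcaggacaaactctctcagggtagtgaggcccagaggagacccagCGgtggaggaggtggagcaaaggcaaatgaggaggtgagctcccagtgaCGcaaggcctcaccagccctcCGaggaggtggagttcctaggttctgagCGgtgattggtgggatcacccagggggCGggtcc
They held 18 and 13 CG dinucleotides. Within 500 kb of Slc31a1, in a window again chosen after the values were seen, 10 of 17 genes were tested. Of these 4 were called higher and 1 lower, against 5.40% and 5.23% of all genes. The median log2 fold change of the 10, Slc31a1 and Slc31a2 included, was 0.72. The other higher calls were Zfp37 (log2 fold change 1.42) and Pole3 (0.82), and the lower call was Alad (-1.66), an enzyme of heme synthesis. The letters TGCNCNC are a loose form of the core of the metal response element. They were in the window of Slc31a2 and not in that of Slc31a1, and they occurred in 42 of 90 member windows and in 46.7% of all windows.

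Zinc carriers were abundant, and edgeR called 0 of 17 in either direction, against 5.40% of all genes higher and 5.23% lower. At an unadjusted p under 0.05, 2 were higher and 4 lower, and DESeq2 called 1 higher and 2 lower. The SLC39 family brings zinc into the cytosol and the SLC30 family moves it out. Slc39a4, the importer ZIP4, had 73.4 in wt, 68.6 and 145 in scr, and 45.4, 44.0 and 32.3 in knockdown. All knockdown libraries were below the controls, by a log2 fold change of -1.40 (SE 0.329), and the FDR of 0.0514 missed the threshold. The log2 fold change was -0.77 without scr 50-1 and -1.83 without scr 25-2. Slc39a8, the zinc and manganese importer ZIP8, had 31.0 in wt, 27.2 and 12.1 in scr, and 9.01, 8.59 and 5.60 in knockdown (log2 fold change -1.36, FDR 0.0744), with -0.64 without scr 25-2 and -1.83 without scr 50-1. Slc39a10, another zinc importer, lay the other way, with 9.07 in wt, 8.55 and 4.80 in scr, and 12.3, 11.7 and 13.7 in knockdown (log2 fold change 0.90, FDR 0.0852), with 0.54 without scr 50-1 and 1.39 without scr 25-2. Slc39a7, which releases zinc from the endoplasmic reticulum, had 60.1 in wt, 58.5 and 85.3 in scr, and 66.1, 69.2 and 59.3 in knockdown, and the groups overlapped. The SLC39 members summed to 266 RPKM in wt, 260 and 361 in scr, and 227, 241 and 206 in knockdown, while the SLC30 members summed to 104 in wt, 105 and 108 in scr, and 95.2, 104 and 91.7 in knockdown. The letters TGCNCNC were in 9 of 14 zinc carrier windows, where 46.7% of all windows held them.

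**Figure D4:**
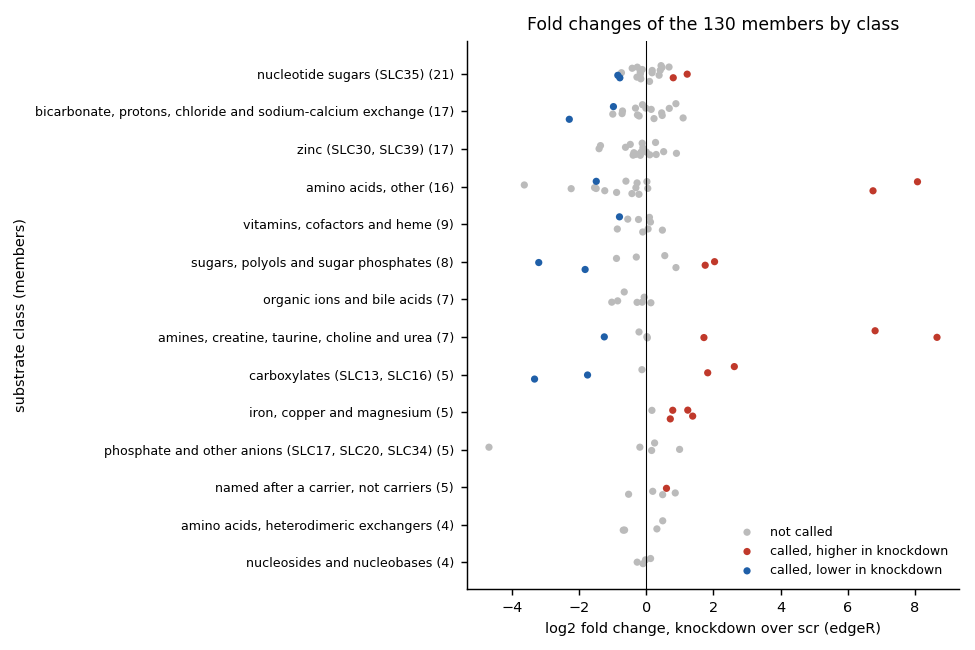
Log2 fold change of knockdown against scr for every member (horizontal axis), in rows by substrate class, with 1 point per member, called members in color and the number of members beside each class. Iron, copper and magnesium carriers sit to the right with 4 of 5 called higher, and none of the 17 zinc carriers is called.

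Of the carriers of sugars, polyols and sugar phosphates, 2 of 8 were called higher and 2 lower, against 5.40% and 5.23% of all genes. Both higher calls, Slc37a1 and Slc45a4, exceeded a mean of 1 RPKM in knockdown and not in scr, and so entered through that difference. In all 8 the knockdown libraries lay outside the scr range, above it in 4 and below it in 4, where 25.7% and 24.5% of all genes did. Slc5a3, the sodium and myo-inositol cotransporter that responds to osmotic stress, lies at chr16:92058322-92087473. It had an RPKM of 12.2 in wt, 38.5 and 29.0 in scr, and 4.06, 4.13 and 2.95 in knockdown. The mean fell from 33.7 ± 6.69 in scr (SD, n = 2) to 3.71 ± 0.662 in knockdown (SD, n = 3), a log2 fold change of -3.20 (SE 0.214, FDR 0.00408, edgeR) that ranged from -3.39 to -2.96 with each library left out. The gene overlaps Mrps6, a mitochondrial ribosomal protein gene on the same strand, which had 109 in wt, 199 and 236 in scr, and 59.5, 54.2 and 43.0 in knockdown (log2 fold change -2.07, FDR 0.00610), so the split of reads between them is uncertain. Within 500 kb of Slc5a3, in a window chosen after the values were seen, 10 of 15 tested genes were called lower and 0 higher. The shares over all genes were 5.23% and 5.40%, and the median log2 fold change of the 15 was -0.91. These counts include Slc5a3 and the overlapping Mrps6, both called lower, and without Slc5a3 14 tested genes are left. The same windows around Slc18b1 and Slc6a13 gave other pictures, with 2 of 6 tested genes called higher and 0 lower around Slc18b1 (median -0.12), and 2 of 8 higher and 1 lower around Slc6a13 (median 0.24), the carriers included.

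The other sugar carriers called were at low levels. Slc37a1, a sugar phosphate exchanger, had 0.805 in wt, 0.872 and 0.862 in scr, and 2.59, 3.78 and 4.39 in knockdown (log2 fold change 2.03, SE 0.308, FDR 0.0184). Slc45a4 had 1.04 in wt, 0.692 and 0.752 in scr, and 2.33, 3.17 and 1.89 in knockdown (log2 fold change 1.76, SE 0.279, FDR 0.0203). Slc45a3 had 4.41 and 11.1 in scr and 1.83, 2.75 and 2.04 in knockdown (log2 fold change -1.82, SE 0.413, FDR 0.0479). In wt it had an RPKM of 1.12, below every knockdown library, and without scr 50-1 its log2 fold change was -1.01. The call of Slc45a3 was lost with wt added to the controls (FDR 0.234, edgeR) and in both limma fits (FDR 0.0590 and 0.0635). Slc50a1, the glucose carrier SWEET1, had the highest mean of the class over the 6 libraries, although Slc5a3 was higher in scr. It had 19.5 in wt, 21.2 and 18.7 in scr, and 17.4, 16.2 and 15.6 in knockdown, and Slc50a1 was not called.

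The SLC35 family, which brings nucleotide sugars into the endoplasmic reticulum and Golgi, had 21 members. Of these 2 were called higher and 2 lower, against 5.40% and 5.23% of all genes. Slc35d1, a carrier of UDP-glucuronic acid and UDP-N-acetylgalactosamine, had 5.35 in wt, 4.92 and 7.86 in scr, and 15.5, 18.0 and 11.5 in knockdown (log2 fold change 1.22, FDR 0.0496). Slc35b4, a carrier of UDP-xylose and UDP-N-acetylglucosamine, had 11.9 in wt, 14.1 and 13.4 in scr, and 25.6, 22.6 and 24.3 in knockdown (log2 fold change 0.80, FDR 0.0206). The 2 lower calls were members without an established substrate. Slc35e1 had 22.6 in wt, 23.2 and 26.5 in scr, and 14.1, 15.7 and 12.1 in knockdown (log2 fold change -0.85, FDR 0.0276), and Slc35e2, which overlaps a gene on the opposite strand, had 5.88 and 7.19 in scr and 3.68, 4.26 and 3.54 in knockdown (log2 fold change -0.78, FDR 0.0369). The calls of Slc35e1 and Slc35e2 were lost without scr 50-1 and that of Slc35d1 without scr 25-2, with RLE size factors (FDR 0.0503) and with a filter at 0.1 RPKM (FDR 0.0504). Slc35e2 was not called by limma (FDR 0.0556 and 0.0557), and all 4 calls, that of Slc35b4 included (FDR 0.0863, 0.0842 and 0.0741), were lost without knockdown 25-3, 50-2 or 50-5. The members with the highest means over the 6 libraries were not called, with Slc35b1 at 38.9 and 46.1 in scr and 47.8 to 49.4 in knockdown, and Slc35a4 at 18.9 to 19.8 in scr and 24.98 to 25.9 in knockdown. In wt and scr, however, the called Slc35e1 stood above Slc35a4. The class summed to 292 RPKM in wt, 283 and 301 in scr, and 308 to 316 in knockdown.

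Ion and pH exchangers had 0 of 17 members called higher and 2 lower by edgeR, against 5.40% and 5.23% of all genes. DESeq2 called 2 higher and 4 lower, and an unadjusted p under 0.05 held for as many. Slc12a2, the sodium, potassium and chloride cotransporter NKCC1, had 1.58 in wt, 2.49 and 1.03 in scr, and 0.199, 0.479 and 0.413 in knockdown (log2 fold change -2.29, SE 0.525, FDR 0.0493). It became -1.50 with an FDR of 0.0933 without scr 25-2. Slc9a5, a sodium and proton exchanger, had 3.09 in wt, 4.27 and 4.17 in scr, and 2.02, 1.99 and 2.48 in knockdown (log2 fold change -0.98, SE 0.187, FDR 0.0324). Slc26a2, a sulfate transporter with the highest level of the class, had 23.3 in wt, 29.0 and 60.7 in scr, and 35.2, 54.8 and 27.3 in knockdown, and the potassium and chloride cotransporter Slc12a4 stayed between 18.9 and 24.9 in all libraries. Within this class Slc4a11 varied most within groups, with 0.170 and 3.49 in scr and 3.39, 5.19 and 1.60 in knockdown. In a list of sodium pump subunits, which maintain the gradient that drives many of these carriers, 0 of 5 tested were called in either direction (also 0 by DESeq2 and 0 at an unadjusted p under 0.05), and their median log2 fold change was 0.11.

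Against 5.23% of all genes, carriers of vitamins, cofactors and heme had 1 of 9 members called lower. This was Slc33a1, the acetyl-CoA transporter of the endoplasmic reticulum, with 25.03 in wt, 25.2 and 20.8 in scr, and 11.5, 13.8 and 14.9 in knockdown (log2 fold change -0.80, SE 0.172, FDR 0.0434, not called without scr 25-2). The thiamine carrier Slc19a2 had 25.2 in wt, 32.4 and 23.7 in scr, and 32.8, 28.3 and 27.2 in knockdown. The heme transporter Slc48a1 had 19.9 in wt, 12.3 and 44.6 in scr, and 28.7, 31.1 and 31.9 in knockdown, so that the knockdown libraries fell between the scr libraries.

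Among the 4 nucleoside, 5 phosphate and 7 organic ion carriers edgeR called 0, and DESeq2 called 1 phosphate and 1 organic ion carrier lower, as did an unadjusted p under 0.05. Slc29a1, the equilibrative nucleoside transporter ENT1, had 37.9 in wt, 35.4 and 43.1 in scr, and 33.1, 38.4 and 27.1 in knockdown, and Slc43a3 had 3.51 in wt, 8.40 and 3.74 in scr, and 4.75, 6.29 and 6.19 in knockdown. Slc20a2, a phosphate importer, had 43.3 in wt, 45.8 and 43.1 in scr, and 43.1, 60.5 and 46.8 in knockdown, and its relative Slc20a1 ranged from 7.40 to 11.3. The groups overlapped in these 4 genes. Slc17a1, a phosphate and urate carrier of liver and kidney, had 0.433 in wt, 5.89 and 0.694 in scr, and 0.313, 0.0219 and 0.0534 in knockdown. Its log2 fold change was -4.68 (SE 1.27, FDR 0.0696), and -5.52 without scr 50-1. Slc17a6, the vesicular glutamate transporter VGLUT2, had 1.84 in wt, 0.254 and 5.77 in scr, and 9.96, 5.94 and 2.21 in knockdown. The log2 range among the knockdown libraries was 2.12 for Slc17a6, 1.83 for Slc1a2, 1.76 for Slc17a1 and 1.63 for Slc4a11 with 0.1 RPKM added. Of the organic ion and bile acid class, Slc10a3 ranged from 6.22 to 7.87 across the libraries, and Slc10a7 had 8.82 in wt, 8.56 and 9.31 in scr, and 4.84, 5.89 and 6.44 in knockdown.

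The Slco genes encode organic anion transporters that are named outside the Slc series, and 3 of the 9 listed were tested. Of these, 1 was called lower, and the other two had log2 fold changes of -4.69 (FDR 0.0739) and 2.26 (FDR 0.193), while DESeq2 called 2 lower. Slco4a1, a thyroid hormone and prostaglandin carrier, had 0.578 in wt, 13.4 and 10.6 in scr, and 1.83, 1.22 and 1.60 in knockdown. Slco4a1 was the one called (log2 fold change -2.96, SE 0.241, FDR 0.00602, edgeR), and wt was below every knockdown library. Bsg, the chaperone that brings monocarboxylate transporters to the cell surface, had 402 in wt, 308 and 276 in scr, and 256, 249 and 213 in knockdown and was not called (FDR 0.207).

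Of the 5 members named after a carrier, 1 was called. Slc4a1ap, a nuclear protein also known as kanadaptin, had 7.30 in wt, 7.21 and 8.17 in scr, and 11.7, 12.2 and 11.5 in knockdown (log2 fold change 0.60, FDR 0.0469), and this call was lost in each of the 5 fits with 1 library left out. Slc9a3r1, the scaffold NHERF1, had 42.8 in wt, 52.8 and 18.7 in scr, and 50.7, 52.0 and 49.5 in knockdown, and Slc7a6os ranged from 21.0 to 28.0 in all libraries. The 41 expressed carriers set aside from the members had 3 called higher and 0 lower by edgeR, which is 7.32% of them, where DESeq2 called 5 higher and 3 lower and 4 were lower at an unadjusted p under 0.05.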

How the data were processed

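RNA-seq libraries were prepared after ribosomal RNA depletion. The authors aligned the reads with TopHat2 to mm10 and counted them per gene with HTSeq (version 0.6.1p1 per the labels). The deposited counts are not normalized. Whether strand was used in counting is not given in the sources used here, so overlapping genes are uncertain. The authors also deposited RPKM values, which equal the count per kilobase of exon divided by 1 constant per library. Library columns were matched to samples by name, with 0 unmatched.

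Counts of 3 knockdown and 2 scr libraries were tested with the edgeR 4.0.16 quasi-likelihood test in R 4.3.3 (TMM normalization, Benjamini-Hochberg adjustment), over the 11577 genes that exceeded 1 RPKM in any of the 5. Calls required an FDR under 0.05 and a fold change of at least 1.5. SEs were obtained from the log2 fold change and the F statistic, whose square root is their ratio. The common biological coefficient of variation was 0.272. Counting intervals are at 95% and cover counting error only. Libraries of a group differed by more than sampling noise, so none was taken as a library deposited again. This says nothing on whether they are separate clones.

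The members and lists were chosen with earlier results of these data known. The genes named were all called members, the 2 most abundant members of each of 14 substrate classes, the members and carriers nearest the threshold, called members with wt nearer to knockdown, the 5 with the largest spread among knockdown libraries, the called genes of the lists, and Midn. Values of 1 called member are not reported here. Further genes were named after their values were seen: Gm4371, Arid2, Zfp37, Pole3, Alad and Mrps6 near called carriers, hepatocyte carriers below the threshold, markers, Bsg, and the uncalled members Slc1a2, Slc1a4, Slc6a9, Slc16a10, Slc36a4, Slc7a6, Slc39a8, Slc39a10 and Slc41a2. The alternatives were DESeq2 1.42.0, limma 3.58.1 on log2 RPKM with 0.1 or 1 added, other size factors and filters, wt added to the controls, a block for the number in the labels, and each library left out. Sequences came from RefSeq on GRCm38.p6, where 90 members had an entry at the deposited gene start. The fit was also run on simulated counts in which 200 genes per set were changed. It called 74 of 480 2-fold changes (15.4%) and 382 of 520 4-fold changes (73.5%) in the right direction. A gene that was not called may therefore have changed. Figures were drawn with matplotlib 3.10.9.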

Additional observations from a re-analysis of the deposited data

How the results depend on the processing

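With each library left out in turn, between 3 and 18 members were called higher and between 1 and 19 lower, against 16 and 11, and over all genes between 89 and 1146 were called higher and between 42 and 1127 lower, against 625 and 605. The log2 fold change of Midn ranged from -1.49 to -1.25, and its FDR was 0.0525 without knockdown 50-2. DESeq2 called 26 members lower and, over all genes, 1167 higher and 1155 lower. Requiring a mean RPKM over 5 left 10 members called higher and 7 lower, and requiring over 1 in each group left 9 higher, by construction, since fewer members were counted. The log2 fold change of Slc16a10, for which scr 50-1 was the high library, was 0.17 without it and -2.29 without scr 25-2. Numbers 25 and 50 in the labels did not pair the libraries (correlations of same-numbered deviations 0.00254, -0.0728 and 0.0619). With the number as a replicate block, 5 members and 388 genes were called lower, and 15 of the 27 called members remained called. The cause of these shifts was not tested. Over the 27 called members, 277 of 378 alternative values kept the direction and the call, 101 kept the direction without the call, and 0 reversed. The limits are the 2 scr libraries, clones of unknown identity, and 1 wt library.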
